A study of Mus musculus with 9 samples.

Results

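Peritoneal macrophages taken 2 h after an injection of interferon alpha (IFNa) were compared with macrophages of untreated mice. The comparison was defined by the treatment labels, which put 4 arrays in the IFNa group and 3 in the untreated group, 7 of the 9 arrays of the series. It covered 19752 genes that had a probe set carrying exactly 1 gene symbol. All mice were male C57BL/6 animals of 6 weeks. The IFNa group received 10000 U of recombinant IFNa under the skin, and its cells were labelled as sorted on F4/80 and ICAM2. The untreated group received nothing, was titled SPF, and was labelled as sorted on F4/80, while the series' design text names F4/80 and ICAM as the sort markers of all cells. No group injected with vehicle was used, so an effect of the injection cannot be told apart from one of IFNa. The labels do not say whether each array was 1 mouse, so p-values measure only the spread between these samples.

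Type I interferons such as IFNa bind a receptor made of IFNAR1 and IFNAR2. The receptor's kinases switch on a complex that contains STAT2 and IRF9 and binds the interferon-stimulated response element (ISRE) in the promoters of many genes whose products block viruses, sense their nucleic acids and alert other cells. Peritoneal macrophages are mostly large resident cells that depend on the transcription factor GATA6.

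Adgre1, which encodes F4/80, read 8279, 9125, 8931 and 7782 in IFNa replicates 1 to 4 and 8361, 7966 and 8498 in untreated replicates 1 to 3. These values are RMA intensities on a linear scale, as are all levels below. Icam2 read 2489, 3547, 3193 and 2728 against 3872, 3116 and 3524. Both markers were bright in every array, their groups overlapped, and neither passed the test (log2 difference 0.04 ± 0.12 and -0.24 ± 0.16, adjusted p = 0.989 and 0.809). The median intensity of an array ranged from 162.2 to 178.3. The spread of an array, as log2 of its upper over its lower quartile, was 2.16 in IFNa replicate 4 and 2.27 in untreated replicate 1, against 2.68 to 3.03 in the other 5. These narrow arrays also correlated least with the rest across genes (mean r = 0.948 and 0.964, against 0.973 to 0.977).

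At 2 h, 299 genes were higher after IFNa and 74 were lower, at an adjusted p under 0.05 in a linear model over the 7 arrays (limma, Benjamini-Hochberg adjustment over all genes). This was 1.51% and 0.375% of the genes tested, and 1.89% together. Among the higher genes 254 changed at least 2-fold, 100 at least 4-fold, 35 at least 8-fold and 10 at least 32-fold. Among the lower genes 26 changed at least 2-fold and none 4-fold. The median fold was 3.06 for the higher genes and 1.77 for the lower, and the median log2 difference of all genes was -0.02. In all 373 called genes the groups did not overlap, which was so for 3.69% of all genes in the higher direction and 6.75% in the lower. The number lower rested on single arrays: leaving out untreated replicate 2 or 3 brought it to 12 or 31, and leaving out IFNa replicate 1, 2 or 3 to 32, 38 or 19. The number higher ranged from 211 to 317 when 1 array was left out. Without both narrow arrays 334 genes were higher and 294 lower. Quantile normalization gave 396 and 243, so that higher genes made up 62.0% of the calls, against 80.2% here and 53.2% without the narrow arrays.

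**Figure D1:**
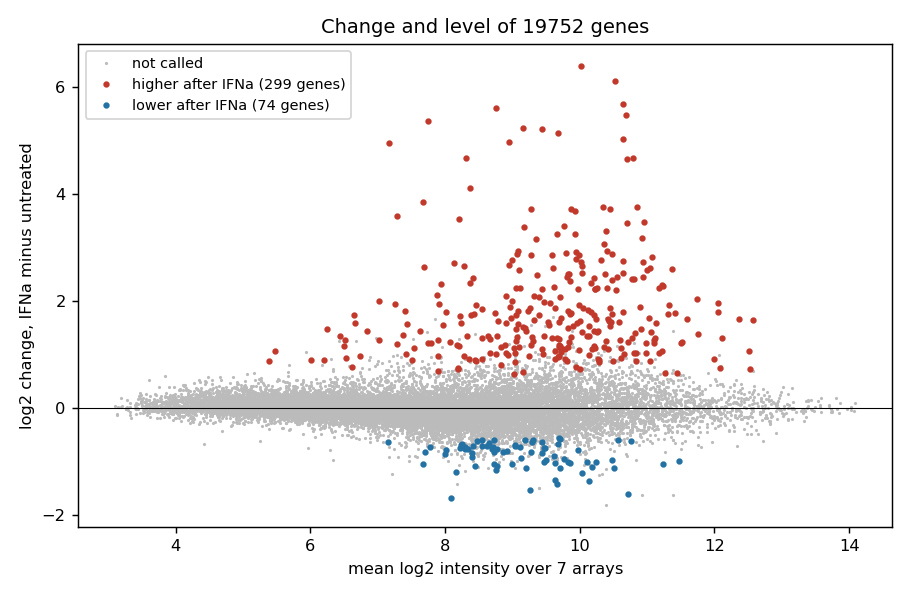
Log2 difference between IFNa and untreated (vertical) against the mean log2 intensity over 7 arrays (horizontal) for 19752 genes. The 299 higher genes (red) extend to a log2 difference of 6.39, and the 74 lower genes (blue) to -1.69.

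Ifit3 and Ifit1 had the 2 largest rises, and Ifit2 followed after Rsad2. Ifit proteins bind foreign RNA or partners that do. Ifit3 read 5957, 7007, 6679.7 and 8446 after IFNa and 63.1, 81.9 and 110.2 in untreated mice, a rise of log2 6.39 ± 0.20 (84.1-fold, adjusted p = 2.81e-06). The lowest IFNa array was far above the highest untreated one. Ifit1 read 8738, 8139.5, 8707 and 10989 against 85.1, 139 and 189, a rise of 6.12 ± 0.25 (69.4-fold). Ifit2 read 1959.7, 2142, 2158 and 3003 against 46.5, 45.1 and 49.9, a rise of 5.60 ± 0.16. The 3 untreated arrays of Ifit2 lay close together, while those of Ifit1 and Ifit3 were lowest in replicate 1 and highest in replicate 3. Rsad2, the gene of the antiviral enzyme viperin, read 8265, 8058, 8128 and 10415 against 107, 217 and 206, a rise of 5.68 ± 0.25. Cxcl10, a chemokine gene whose product draws activated T cells, read 6827, 6922, 8963 and 11586 against 221, 206 and 149, a rise of 5.47 ± 0.22. Next among the 20 largest rises came BC023105 (5.37), Ifi213 (5.23), Iigp1 (5.22), Mx1 (5.14), Ifi205 (5.02), Mx2 (4.98), Ifit3b (4.95), Usp18 (4.67), Ifi208 (4.66) and Cmpk2 (4.65), as log2 differences. Ms4a4c (4.12), Ifi214 (3.85), Ifi209 (3.76), Tnfsf10 (3.72) and Gbp5 (3.71) completed them. Predicted genes were left out of this ranking, among them Gm12250 (3.76), which lay above Tnfsf10 and Gbp5. The mean untreated levels of BC023105 (26.1) and Ifit3b (20.3) were close to the floor of the arrays (5th percentiles of 24.4 to 28.3 over genes), and those 2 rises have no exact size.

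**Figure D2:**
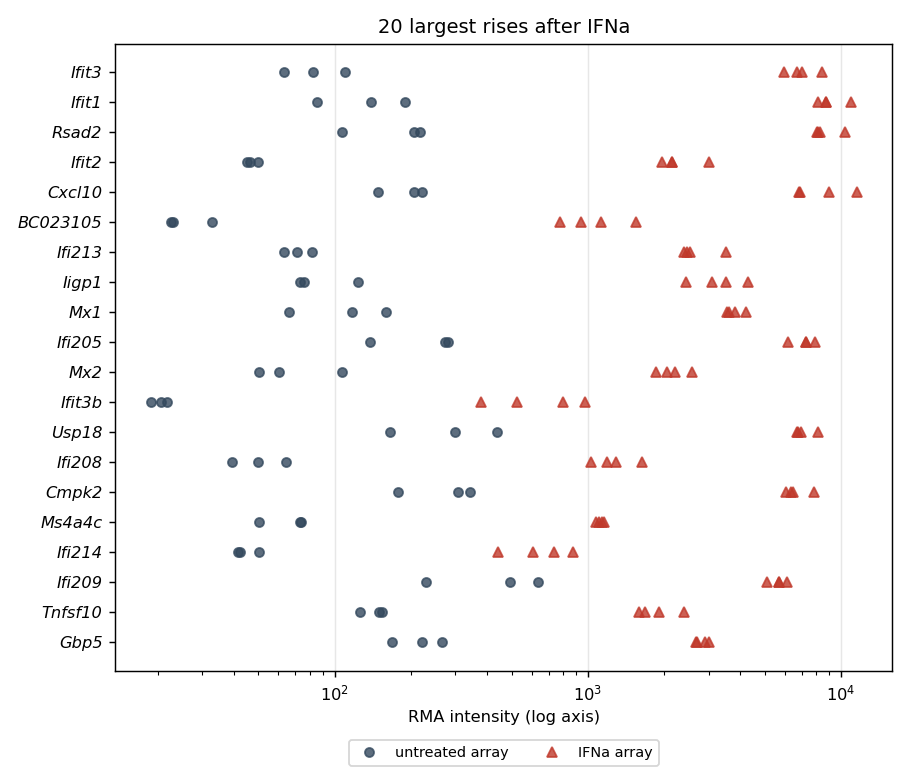
RMA intensity (log axis) of the 20 largest rises, with 1 point per array: triangles for 4 IFNa arrays and circles for 3 untreated arrays. The genes were picked among called genes whose groups do not overlap, so the separation follows from the choice. Ifit3 stands at 5957 to 8446 after IFNa and 63.1 to 110.2 in untreated mice.

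The sequences before the start sites of the most changed genes are shown because the ISRE is where the complex with STAT2 and IRF9 binds. They are 120 bases each from RefSeq promoter windows of the mouse build GRCm38.p6, 5′ to 3′ on the gene's strand. Those shown belong to the 6 largest rises and the largest fall that have a window, and capitals mark matches on either strand to the ISRE core, which is GAAA, any 2 bases and GAAA again.
Ifit3 (chr19:34583327-34583446, plus strand): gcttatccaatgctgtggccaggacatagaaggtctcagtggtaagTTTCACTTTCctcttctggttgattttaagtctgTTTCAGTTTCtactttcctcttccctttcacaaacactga
Ifit1 (chr19:34640769-34640888, plus strand): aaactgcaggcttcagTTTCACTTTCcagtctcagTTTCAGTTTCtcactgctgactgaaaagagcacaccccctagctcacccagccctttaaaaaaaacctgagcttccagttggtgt
Rsad2 (chr12:26456453-26456572, minus strand): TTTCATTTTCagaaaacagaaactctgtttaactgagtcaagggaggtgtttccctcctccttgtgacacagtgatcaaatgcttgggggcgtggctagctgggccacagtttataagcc
Ifit2 (chr19:34550574-34550693, plus strand): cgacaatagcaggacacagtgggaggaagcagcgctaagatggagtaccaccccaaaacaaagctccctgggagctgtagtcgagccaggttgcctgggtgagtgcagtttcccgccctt
Cxcl10 (chr5:92349020-92349139, minus strand): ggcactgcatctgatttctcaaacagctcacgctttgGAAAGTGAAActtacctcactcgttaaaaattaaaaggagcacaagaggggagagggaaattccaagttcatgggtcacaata
Ifi213 (chr1:173599273-173599392, minus strand): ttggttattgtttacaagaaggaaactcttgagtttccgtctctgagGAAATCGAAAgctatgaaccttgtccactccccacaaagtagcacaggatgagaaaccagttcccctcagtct
Engase (chr11:118476712-118476831, plus strand): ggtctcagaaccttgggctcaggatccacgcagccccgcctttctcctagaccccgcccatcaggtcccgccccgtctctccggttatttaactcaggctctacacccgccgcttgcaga
The stretches of Ifit3 and Cxcl10 end 82 and 130 bases before the start, and the others end at it. Ifit3 and Ifit1 each held 2 matches, on the strand opposite to the motif as written, and both genes had the same letters in them, TTTCACTTTC and TTTCAGTTTC. Rsad2, Cxcl10 and Ifi213 held 1 match each, and neither Ifit2, in its 2 windows, nor Engase held any.

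Over the 250 bases before the start, the ISRE core matched in 3.39% of the 15435 genes with a window. Among called genes, 240 higher and 55 lower ones had a window. The core matched in 17 of the 27 genes (63.0%) that rose at least 8-fold. Below that size the share was 12.2% of 49 genes at 4-fold to under 8-fold, 14.8% of 128 at 2-fold to under 4-fold and 11.1% of 36 under 2-fold. None of the 55 lower genes held it. In the 46 higher genes with a match, the match nearest the start lay a median of 64 bases before it (quartiles 34.25 and 121.5), and in 38 within 150 bases. The distance in genes that were not called was not computed, so these values have no background to compare with. The GAS motif TTCNNNGAA, which STAT dimers bind, matched in 11.7% of higher genes, 3.64% of lower genes and 7.72% of all. By size its share was 11.1% of the genes that rose at least 8-fold and 18.4% of those at 4-fold to under 8-fold. The AP-1 motif TGANTCA matched in 24 of 240 higher genes, in no lower gene and in 7.06% of all. It matched in 7 of the 27 genes (25.9%) that rose at least 8-fold and in 6.12% of the 49 in the next class. All motifs were searched on both strands, a base could belong to matches of more than 1 motif, and genes with several start sites had several windows. Members of 1 gene family can share promoter sequence, so the genes are not independent.

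**Figure D3:**
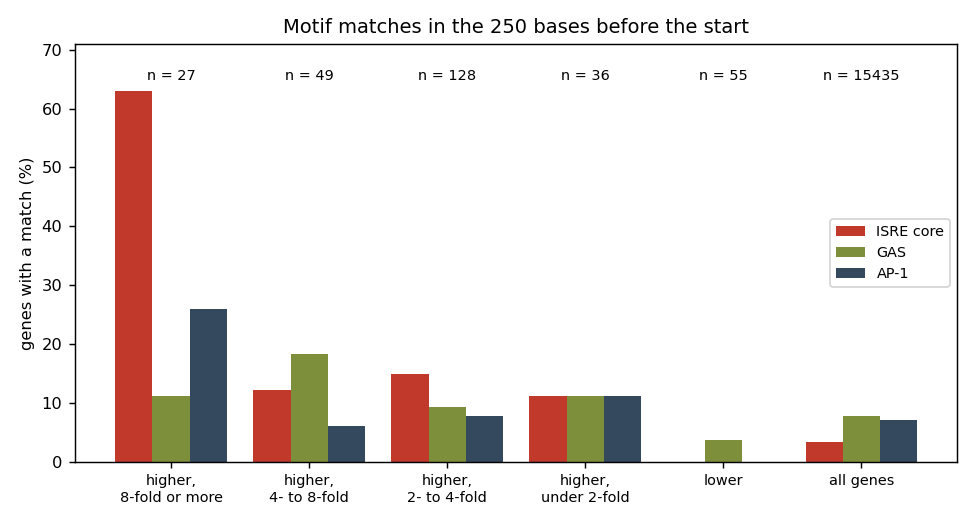
Share of genes (percent) with a match to the ISRE core, GAS or AP-1 motif in the 250 bases before a start site, by size class of the change, with the number of genes above each class. The ISRE core stands at 63.0% in the class of at least 8-fold and at 3.39% over all genes.

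Of the genes that carry the signal, Stat2, Irf7 and Irf1 rose. None of 15 interferon genes measured was called, so no rise in the ligands was detected (median log2 0.06). Of these 15, 11 lay below the median level of all genes, where a small rise may not show. Ifna1, Ifna6 and Ifna7 had only shared probe sets and were not analysed here. In the list of receptors, JAK kinases and STATs, 1 of 13 was higher. Stat2, a component of the ISRE-binding complex, read 3253, 3039.9, 3510.1 and 3269 against 307, 403 and 477, a rise of 3.07 ± 0.16 (adjusted p = 2.56e-05). Each IFNa array was far above each untreated one. The receptor genes Ifnar1 (1064, 1099, 1145 and 945 against 952, 1057 and 1253) and Ifnar2 (3466, 4690.3, 4217 and 3551 against 3459, 4179.6 and 4059.6) overlapped between groups. Irf9, whose product binds DNA in the same complex as STAT2, read 1943, 1868, 1797 and 1802 against 642, 1188 and 1334. Its groups were apart, but the untreated arrays were widely spread and it did not pass (log2 0.88 ± 0.23, adjusted p = 0.144). It passed under quantile normalization (adjusted p = 0.0308) and without both narrow arrays (0.0393). The kinase gene Jak2 (1.10 ± 0.24, adjusted p = 0.0676) did not pass here and passed with the spread taken from all 9 arrays (0.0318). The median of this list was -0.03, and 0.00 under median centring. Of 8 interferon regulatory factors 2 rose, Irf7 (3.18 ± 0.30), which drives further interferon production, and Irf1 (2.39 ± 0.23). A dimmer probe set of Irf1 gave 0.51. Isg15 had no probe set of its own and was not analysed here.

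Genes that act against viral RNA rose as a group: 17 of 19 measured were higher, with a median of log2 2.60. Besides the Ifit genes they included the oligoadenylate synthetase genes, whose enzymes activate RNase L. Oasl1 (3.67), Oas3 (3.25), Oas1b (2.85), Oasl2 (2.60), Oas1a (2.27) and Oas2 (1.92) rose to different extents. Oas2 read 4877, 4112, 4726 and 4578 against 1209, 1053 and 1371, and was thus already well expressed in every untreated array. Eif2ak2, the gene of the kinase PKR that halts translation, read 2589.8, 2136, 2454 and 2254 against 218, 275 and 499, a rise of 2.92 ± 0.26. Ddx60 (3.17), Isg20 (2.43), Helz2 (2.33), Adar (1.68) and Zc3hav1 (1.54) rose as well. Isg20, a nuclease gene, was highest in IFNa replicate 4 (2231, 2117, 2062 and 3640.4).

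Genes that act on membranes, nucleotides and virus entry were higher in 12 of 22 cases, with a median of 1.25. The dynamin-like GTPase genes Mx1 (3802, 3613, 4201 and 3555 against 66.0, 117 and 159) and Mx2 (2208, 2059.8, 2585 and 1859 against 60.5, 50.2 and 107) rose 35.4-fold and 31.5-fold. Cmpk2, a nucleotide kinase gene beside Rsad2, read 6080.0, 6377, 6489 and 7828 against 178, 307 and 342. Rtp4 (2.72), Tor3a (2.57), Xaf1 (2.50), Samd9l (2.23), Apobec3 (1.67) and Epsti1 (1.59) also rose, the cytidine deaminase gene Apobec3 among them. Samhd1, whose enzyme removes nucleotides that retroviruses need, rose by 1.07 ± 0.17 from an already high level (7953, 7404, 7579 and 9166 against 3074, 3732 and 4860.3). Its call ended without IFNa replicate 1 or untreated replicate 2 (adjusted p = 0.0607 to 0.104). Bst2, the gene of tetherin, rose by 0.97 ± 0.13. Ifitm3, which blocks virus entry, was among the brightest genes in both groups (10887, 10627, 10385 and 11834 against 9308, 10549 and 10343) and did not pass (0.12 ± 0.12, adjusted p = 0.944).

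The machinery that attaches and removes the ubiquitin-like protein ISG15 rose in 4 of 5 measured members. Usp18, which removes ISG15 and also blocks the receptor, read 6706, 6777, 6938 and 8087 against 166, 300.0 and 439, a rise of 4.67 ± 0.29. The ligase genes Herc6 (3.46) and Trim25 (1.47) and the conjugating enzyme gene Ube2l6 (2.25) rose too. IFNa replicate 1 was the lowest for Ube2l6 (1728, 2602, 2635 and 2715).

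Of 11 interferon-inducible GTPases, which attack vacuoles of intracellular pathogens, 8 rose, with a list median of 2.64. Iigp1 read 2453, 3105, 3513 and 4304 against 75.9, 72.7 and 123, Gbp5 2695, 2674, 3022 and 2916 against 169, 221 and 266, and Irgm1 3951, 4090.5, 4724 and 4173 against 189, 393 and 452. The untreated arrays of Irgm1 varied more than its IFNa arrays. Gbp4 (3.53), Gbp9 (2.90), Gbp11 (2.64), Gbp7 (2.44) and Gbp3 (1.22) followed. All 8 measured PYHIN genes, of the family of DNA-binding proteins that includes the inflammasome sensor AIM2, were higher, with the highest list median of all, 3.81. They spanned a wide range of size, from Ifi213 (5.23), Ifi205 (5.02) and Ifi208 (4.66) through Ifi214 (3.85) and Ifi209 (3.76) to Ifi203 (1.80), Ifi207 (1.64) and Aim2 (1.13). Ifi203 read 1867, 2387 and 2031 in untreated mice, whereas Ifi213 read 63.1, 71.3 and 81.6. The call of Aim2 ended without IFNa replicate 3 (adjusted p = 0.0515). Neighbouring members of these families resemble each other, so some of their probes may share signal.

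Among other nucleic-acid sensors and adaptors 6 of 29 rose, with a median of 0.31. They were Zbp1 (2.76), which binds Z-form nucleic acids, the double-stranded RNA sensors Ifih1 (2.44) and Tlr3 (2.07), the regulator Dhx58 (2.22), the DNA sensor Cgas (1.44) and the peptidoglycan sensor Nod1 (1.27). Tlr3 read 1453, 1079, 1245 and 1216 against 258, 344 and 293, a clear gap with little spread in either group.

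PARP, PML and nuclear body genes rose in 17 of 23 cases (median 1.78). Parp14, which adds ADP-ribose to proteins, read 5307, 4843, 5057 and 4712 against 569, 726 and 856, a rise of 2.81 ± 0.16. Parp9 (2.78), Dtx3l (2.40), Phf11c (2.93), Phf11d (2.72), Phf11a (2.45), the histone methyltransferase gene Setdb2 (2.86) and the chaperone gene Daxx (2.53) rose by similar amounts. Pml (1.21), the scaffold of nuclear bodies, rose less. Schlafen and TRIM genes rose in 15 of 20 cases (median 1.65), from Slfn5 (3.47) and Slfn9 (3.25) through Slfn8 (2.51), Trim30d (2.41) and Slfn1 (2.23) to Trim21 (1.96), an intracellular antibody receptor gene. Slfn5 read 5767, 4975, 5097 and 6686 against 299.6, 538 and 796. The call of Slfn1 ended without untreated replicate 1 or 2 (adjusted p = 0.0502 to 0.0997).

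**Figure D4:**
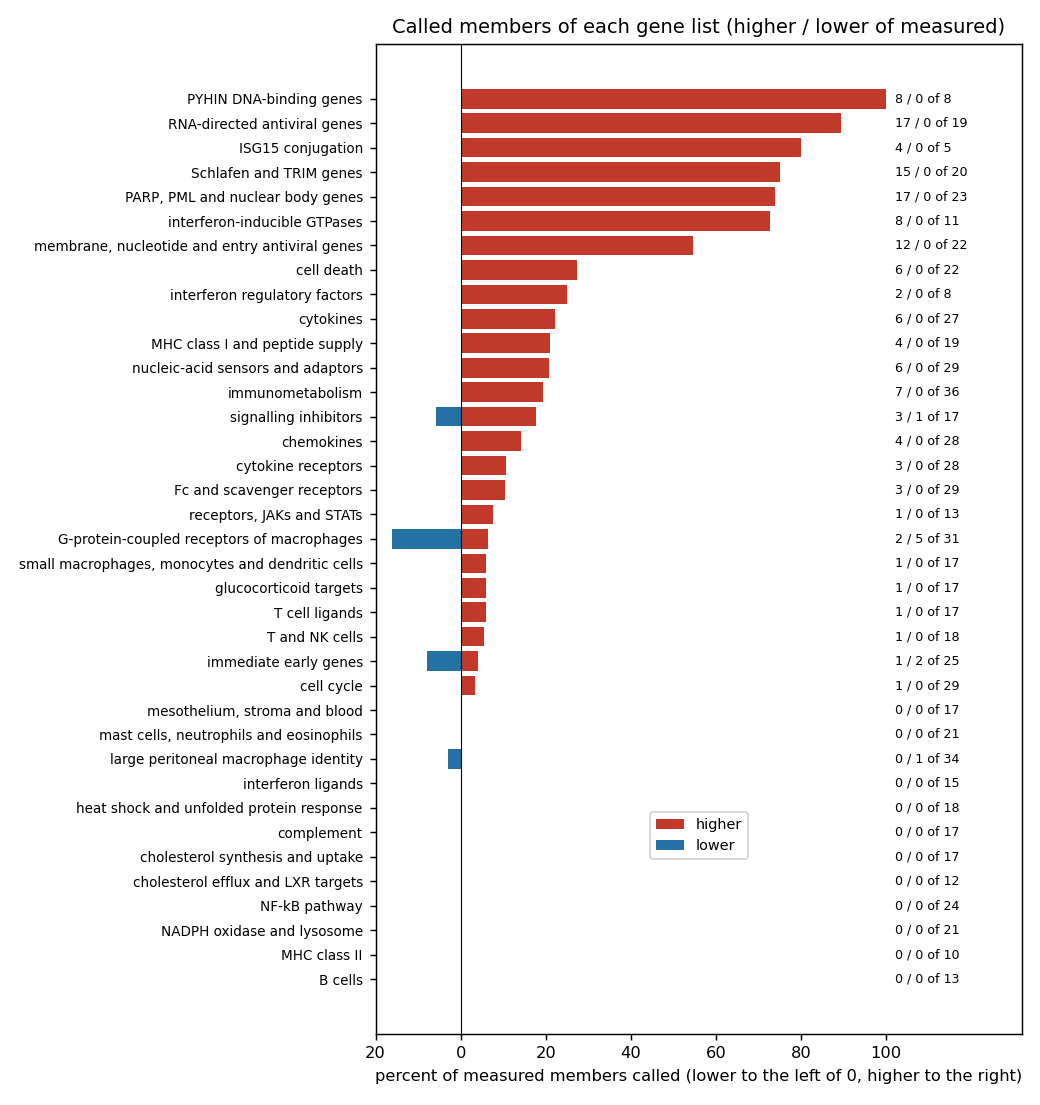
Percent of the measured members of each of 37 gene lists that were called higher (red, right) or lower (blue, left) after IFNa, with counts at the right edge. The PYHIN list stands at 8 of 8 higher and the macrophage G-protein-coupled receptor list at 2 higher and 5 lower of 31, against 1.51% and 0.375% of all genes.

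Inhibitors of the signal were called in 4 of 17 cases, 3 higher and 1 lower. Socs1, which blocks JAK kinases, read 654, 768, 867 and 1679 against 213, 244 and 236, a rise of 2.00 ± 0.29, and IFNa replicate 4 was the highest. Socs2 rose by 2.64 ± 0.17, while its other probe set gave 0.79. The probe set used was the brighter one only through the IFNa arrays (mean log2 8.83 against 7.90). In the untreated arrays it was the dimmer one (6.18 against 7.11). Pias3, an inhibitor of STAT3, fell by 0.92 ± 0.16 (243, 291, 295 and 213 against 433, 536 and 507), a call that ended without IFNa replicate 1 or untreated replicate 2 or 3 (adjusted p = 0.0785 to 0.143). Socs3 did not pass (0.69 ± 0.32, adjusted p = 0.556), with IFNa replicate 4 at 1971 and the other 3 IFNa arrays at 797 to 877.

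Antigen presentation changed in a few of the members measured. H2-K1, H2-D1, H2-Q6, H2-T22 and H2-T23 had only probe sets shared with other genes and were not analysed here. In the MHC class I list 4 of 19 were higher: H2-T24 (2.52 ± 0.16), the peptide transporter gene Tap1 (1.74 ± 0.14), and the proteasome genes Psmb9 (0.92 ± 0.17) and Psme2 (0.88 ± 0.17). The call of Psmb9 ended without IFNa replicate 2, 3 or 4 or untreated replicate 1 or 2 (adjusted p = 0.0563 to 0.181), with an intensity trend (0.0531) and without both narrow arrays (0.0834). That of Psme2 ended without IFNa replicate 1, 2, 3 or 4 or untreated replicate 2 (adjusted p = 0.0669 to 0.136), under median centring (0.0629) and with an intensity trend (0.0518). The count was 2 without IFNa replicate 2, 3 or 4 or untreated replicate 2. No MHC class II gene of 10 was called, with a median of -0.13, and Ciita, their master regulator, did not pass (0.13 ± 0.14, adjusted p = 0.96). Of 17 ligands for T cells 1 was higher: Cd274, the gene of PD-L1, read 2534, 2011, 2241 and 2814 against 183, 184 and 341, a rise of 3.40 ± 0.24.

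Some genes of secreted signals rose. Of 28 chemokines 4 were higher, Cxcl10 and the monocyte-attracting genes Ccl2, Ccl7 and Ccl12. Ccl2 read 3482, 2434, 3913 and 3343 against 261, 724 and 410.1, a rise of 2.93 ± 0.32. Ccl7 read 2319.6, 1380.0, 3116 and 3229.7 against 229, 545 and 279.8, a rise of 2.86 ± 0.37, with IFNa replicate 2 the lowest of its group. Cxcl9, which shares a receptor with Cxcl10, overlapped between groups (131, 141, 146 and 161 against 119, 146 and 98.9) and did not pass (0.27 ± 0.16, adjusted p = 0.723). The list median was 0.00. Of 27 cytokine genes 6 were higher. Tnfsf10, the gene of the death ligand TRAIL, read 1598, 1678, 1916 and 2396 against 126, 153 and 150.1. Il15, whose product sustains NK cells, read 2005, 1883, 2259 and 1649 against 239, 412 and 400.4, a rise of 2.51 ± 0.21, and Il18 rose by 2.24 ± 0.30. Il6 (2.31), Csf1 (1.99) and the inhibitor gene Il18bp (1.13) also rose. Tnf (-0.37) and Il1b (-0.17) did not pass (adjusted p = 0.343 and 0.96). Il15ra, which presents IL-15 on the cell surface, rose by 1.87 ± 0.17, and Il10ra by 1.02 ± 0.18, a call that ended without IFNa replicate 1, 2 or 3 or untreated replicate 2 (adjusted p = 0.0605 to 0.0918). With the decoy receptor gene Il18bp they were the 3 of 28 cytokine receptors that were higher. No NF-kB pathway gene of 24 was called. In 5 of them every IFNa array was lower than every untreated one, as in 6.75% of all genes. Without both narrow arrays 3 were called lower, in a fit that called 294 of all genes lower. Among the 3 was the inhibitor gene Nfkbie (adjusted p = 0.0136, against 0.185 with all 7 arrays).

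Cell death genes were higher in 6 of 22 cases, Tnfsf10 and Zbp1 among them. Mlkl, which executes necroptosis, read 1360.0, 1191, 1485 and 1340.5 against 307, 476 and 575, a rise of 1.61 ± 0.21. The inflammatory caspase genes Casp4 (1.62), Casp1 (1.31) and Casp12 (1.07) rose, Casp12 from close to the floor of the arrays (29.0, 30.6 and 27.9), so that its size is not exact. The call of Casp4 ended without IFNa replicate 1, 2, 3 or 4 (adjusted p = 0.0544 to 0.0951) and that of Casp1 without untreated replicate 2 (adjusted p = 0.085). Of 36 immunometabolism genes 7 were higher: Pnp (2.88), which breaks down purine nucleosides, Nampt (2.25), which makes NAD, Gch1 (1.82), which makes tetrahydrobiopterin, Slc25a22 (1.68), the glycolytic Hk2 (1.25), Acod1 (1.18), which makes itaconate, and Kmo (1.15). Pnp read 2872, 3354, 3375 and 3976 against 244, 509 and 770.2. The call of Hk2 ended without IFNa replicate 1 or untreated replicate 1 or 2 (adjusted p = 0.0511 to 0.0819). Nos2, the inducible nitric oxide synthase gene, read 120.2, 118, 111 and 144 against 111, 111 and 109.6, and Ch25h, which makes an antiviral oxysterol, 69.5, 69.5, 69.5 and 74.2 against 69.5, 61.2 and 50.6. Neither passed (adjusted p = 0.904 and 0.714). No gene of cholesterol synthesis (17) or efflux (12) was called, and under quantile normalization 1 efflux gene was lower.

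Of 29 Fc and scavenger receptors 3 rose. Fcgr1, the high-affinity IgG receptor gene, read 3088, 3408, 3817 and 4192 against 387, 497 and 801, a rise of 2.75 ± 0.24. Siglec1, the gene of a sialic acid receptor, rose by 1.75 ± 0.17, and Fcgr4, another IgG receptor gene, by 1.79 ± 0.33. The IgG receptor genes Fcgr2b (-0.21, adjusted p = 0.718) and Fcgr3 (-0.10, adjusted p = 0.978) did not pass. The call of Fcgr4 ended without IFNa replicate 1, 2, 3 or 4 or untreated replicate 2 (adjusted p = 0.0652 to 0.105). No complement gene of 17 and no NADPH oxidase or lysosome gene of 21 was called. With the spread taken from all 9 arrays 1 complement gene was higher and 1 gene of the latter list lower.

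Among 31 G-protein-coupled receptors of macrophages 2 were higher and 5 lower. P2ry13 (639, 622, 671 and 671 against 217, 299 and 256) and P2ry14 (896, 928, 922 and 918 against 287, 503 and 393), receptors of extracellular nucleotides and nucleotide sugars, rose by 1.35 ± 0.14 and 1.25 ± 0.18. Htr2a, a serotonin receptor gene, read 369.6, 495, 418 and 302 against 1218, 1168 and 1010.2 and fell by 1.53 ± 0.18 (2.89-fold, adjusted p = 0.00242). S1pr1, the receptor of a lipid that guides cells out of tissue, read 493, 826, 565 and 343 against 1119, 1613 and 1607 and fell by 1.43 ± 0.28. IFNa replicate 4 was the lowest for both. Ptger4, a prostaglandin E2 receptor gene, read 989.9, 795, 861 and 474 against 1752, 2094 and 1997 and fell by 1.37 ± 0.24. P2ry2 fell by 1.35 ± 0.20 and the oxysterol receptor gene Gpr183 by 1.09 ± 0.21. Htr2a kept its call whichever array was left out. The call of S1pr1 ended without IFNa replicate 1 or 3 or untreated replicate 1, 2 or 3 (adjusted p = 0.0616 to 0.229), that of Ptger4 without IFNa replicate 2 or 3 or untreated replicate 1, 2 or 3 (adjusted p = 0.0515 to 0.147), that of P2ry2 without untreated replicate 2 (adjusted p = 0.0597) and that of Gpr183 without IFNa replicate 1, 2 or 3 or untreated replicate 2 or 3 (adjusted p = 0.0515 to 0.2). The number of lower receptors was 3 without IFNa replicate 1 or 2 or untreated replicate 1, 2 without IFNa replicate 3 or untreated replicate 3, and 1 without untreated replicate 2. Quantile normalization gave 6 and median centring 3.

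Sox7, a transcription factor gene, had the largest fall of all: it read 146, 215, 143 and 164 against 502, 652 and 462 and fell by 1.69 ± 0.19 (3.23-fold, adjusted p = 0.00175). Engase, which trims glycans from proteins, read 1231, 1278, 1033 and 727 against 2942, 3169 and 3426 and fell by 1.61 ± 0.20. Both kept their calls whichever array was left out. Mef2d, a transcription factor gene, fell by 1.13 ± 0.14 (1265, 1037, 912 and 1001 against 2233, 2510.0 and 2142) and also kept its call. Akna fell by 1.21 ± 0.17, Trib1 by 1.19 ± 0.20, the kinase gene Mast3 by 1.13 ± 0.19 and Fhl3 by 1.12 ± 0.16. Their calls ended without untreated replicate 2 (adjusted p = 0.0625) for Akna, IFNa replicate 3 or untreated replicate 2 or 3 (adjusted p = 0.0646 to 0.111) for Trib1, IFNa replicate 3 or untreated replicate 1 or 2 (adjusted p = 0.0568 to 0.13) for Mast3 and untreated replicate 2 (adjusted p = 0.0521) for Fhl3.

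**Figure D5:**
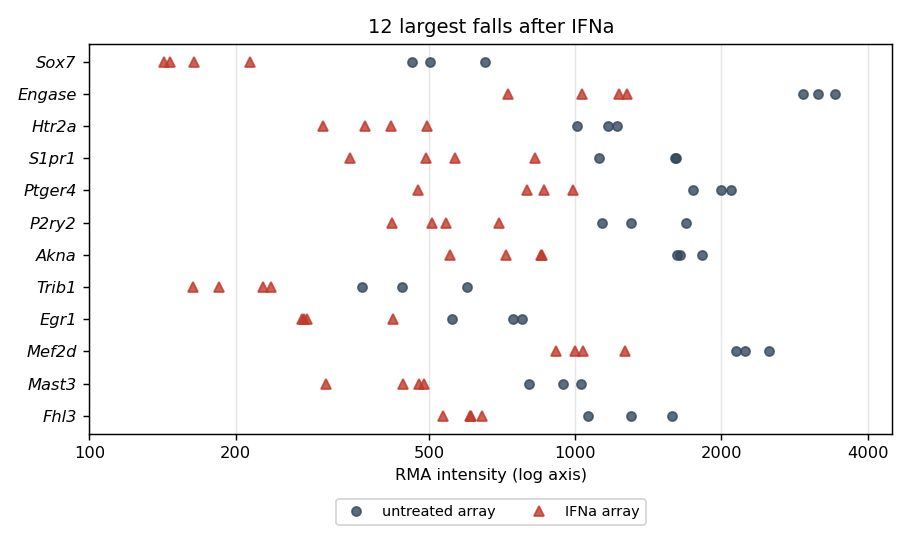
RMA intensity (log axis) of the 12 largest falls, with 1 point per array: triangles for 4 IFNa arrays and circles for 3 untreated arrays. The genes were picked among called genes whose groups do not overlap, so the separation follows from the choice. Sox7 stands at 142.7 to 214.5 after IFNa and 461.6 to 651.8 in untreated mice.

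Gata6, on which large peritoneal macrophages depend, read 2136, 1978, 1687 and 1374 against 3293, 3778 and 3967 and fell by 1.05 ± 0.17 (2.07-fold, adjusted p = 0.0166). Every IFNa array lay below every untreated array, and IFNa replicate 4 was the lowest. Its call ended without IFNa replicate 3 or untreated replicate 2 or 3 (adjusted p = 0.0663 to 0.111). The list of large macrophage identity held this 1 call among 34 genes, with a median of -0.08, and its lower count was 0 in those 3 fits and 2 without IFNa replicate 4. The level on an array cannot tell fewer cells of a type from less RNA per cell.

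Genes that respond to handling and stress moved in both directions. Of 25 immediate early genes, Atf3 rose by 1.61 ± 0.23 (2554, 2191, 2501 and 2703 against 537, 1012 and 989.7), and Egr1 (422, 276, 274 and 281 against 557, 779 and 745) and Jund fell by 1.16 ± 0.20 and 0.61 ± 0.11. The call of Egr1 ended without IFNa replicate 2, 3 or 4 or untreated replicate 2 or 3 (adjusted p = 0.0504 to 0.143), and that of Jund without IFNa replicate 1, 2 or 3 or untreated replicate 1, 2 or 3 (adjusted p = 0.0529 to 0.185). Neither passed without IFNa replicate 2 or 3 or untreated replicate 2 or 3. The number of lower immediate early genes was 5 under quantile normalization and 9 without both narrow arrays. Those fits called 243 and 294 of all genes lower. Dusp1, which ends MAP kinase signals, read 2482, 2436, 1722 and 702 against 3302, 5736 and 6887 and did not pass (-1.62 ± 0.45, adjusted p = 0.161), but did without both narrow arrays (0.0124) and under quantile normalization (0.0457). Of 17 glucocorticoid targets 1 was higher and none lower, with a list median of 0.10 and a lowest log2 of -1.62. Quantile normalization gave 2 higher and 2 lower. The 1 called here was Fkbp5, a chaperone gene of the glucocorticoid receptor, which rose by 2.33 ± 0.19 (761, 631, 642 and 627 against 103, 124 and 178). No gene of 18 for heat shock and the unfolded protein response was called (median 0.31). Without untreated replicate 3 the count was 2 higher. The chaperone gene Hsph1 read 354, 495, 466 and 362 against 166, 208 and 301 and did not pass (0.93 ± 0.22, adjusted p = 0.0972), but did under quantile normalization (0.0244) and without untreated replicate 3 (0.0367). Ccnd2, a cyclin gene, was the called gene of 29 for the cell cycle (1.43 ± 0.27), a list with a median of 0.44 and a summed intensity of 14841 to 36731 in the IFNa arrays and 13392 to 24765 in the untreated arrays. Its call ended without IFNa replicate 2 or 3 or untreated replicate 1, 2 or 3 (adjusted p = 0.0926 to 0.128). The part of handling and of cycling cells in these results was not tested.

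Markers of other cells in the lavage gave 2 calls. Plac8, also expressed in monocytes, rose by 1.00 ± 0.17, a call that ended without IFNa replicate 1 or 2 or untreated replicate 1 or 2 (adjusted p = 0.0541 to 0.102). It was 1 of 17 genes of small macrophages, monocytes and dendritic cells, whose summed intensity was 7908 to 10220 in the IFNa arrays and 8132 to 9271 in the untreated arrays. Klrk1, the gene of the receptor NKG2D, rose by 1.48 ± 0.13 from a low level (122, 112, 129 and 112 against 43.7, 37.8 and 46.3) and was 1 of 18 T and NK cell genes. That list summed to 1307 to 1757 in the IFNa arrays and 1256 to 1639 in the untreated arrays, and all 18 members lay below the median level of all genes. No B cell gene of 13 was called, and the sum was 2707 to 4722 in the IFNa arrays and 3088 to 3461 in the untreated arrays. The B cell gene Ms4a1 was at 179, 531, 53.7 and 142 against 110.3, 67.4 and 200.4, with IFNa replicate 2 the highest. No gene of 21 for mast cells, neutrophils and eosinophils was called (1506 to 1922 in the IFNa arrays and 1574 to 1936 in the untreated arrays), nor of 17 for mesothelium, stroma and blood (7923 to 10540 in the IFNa arrays and 9428 to 10125 in the untreated arrays). The groups of all 5 sums overlapped.

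The calls were not spread evenly over expression levels. Of the 4938 brightest genes by mean over the 7 arrays 224 were higher and 42 lower, against 5 and 0 of the 4938 dimmest. That mean includes the IFNa arrays, so a rise itself moves a gene up the ranking. By the mean over the untreated arrays, 122 were higher and 59 lower of the brightest 4938, against 28 and 0 of the dimmest. The size of the called rises did not grow with this level. Their median log2 was 1.66, 1.87, 1.81 and 1.39, from the dimmest 4938 genes to the brightest. Of the higher genes, 49 lay below the median of every untreated array, and 14 of these lay above the upper quartile of every IFNa array. They were Ifit2, Ifit3, Mx1, Mx2, Iigp1, Gbp4, Gbp11, Ifi208, Ifi213, Ifi214, Tnfsf10, Ms4a4c, BC023105 and G530011O06Rik. Another 98 higher genes were already above the upper quartile in every untreated array, as were 48 of the 74 lower genes.

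The 4 IFNa arrays responded by similar amounts. Relative to the untreated mean, the median of the 299 higher genes was log2 1.62, 1.55, 1.72 and 1.55 in IFNa replicates 1 to 4, and -0.25, 0.04 and 0.25 in untreated replicates 1 to 3. The untreated arrays thus differed among themselves in these genes. Untreated replicate 1 was the lowest of its group in 73.6% of them, against 40.9% of all genes, and untreated replicate 3 the highest in 71.9%, against 36.0%. The median SD of a higher gene on the log2 scale was 0.18 over the IFNa arrays and 0.30 over the untreated ones, against 0.20 and 0.22 for all genes. These genes were chosen by the same arrays, so the values are a description.

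Genes that rose often lay side by side. Of the 299 higher genes 94 (31.4%) fell into 32 runs of adjacent measured genes. Of the 74 lower genes 2 did (2.70%, Pcnx3 and Map3k11). A larger set has more neighbours by its number alone, so the 2 shares cannot be compared directly. The share expected from the number of genes called was not computed. The call of Map3k11 ended without IFNa replicate 1, 2 or 3 or untreated replicate 2 or 3 (adjusted p = 0.141 to 0.247). The longest run held 8 Schlafen genes, from Slfn5 to Slfn3, with rises of log2 1.59 to 3.47. The call of Slfn3 ended without untreated replicate 1 or 2 (adjusted p = 0.0542 to 0.111). Runs of 7 held the PYHIN genes from Aim2 to Ifi203 (1.13 to 5.23) and the Ms4a membrane genes (0.88 to 4.12). The lowest of the latter, Ms4a4b, was near the floor in untreated mice (34.0, 31.2 and 24.1), and its size is not exact. In the Ms4a run, Ms4a4c (4.12), Ms4a6c (2.29) and Ms4a6b (2.00) kept their calls whichever array was left out. The calls of the other 4 ended without IFNa replicate 1, 3 or 4 or untreated replicate 1, 2 or 3 (adjusted p = 0.0645 to 0.179) for Ms4a4a, IFNa replicate 1, 2 or 3 or untreated replicate 1, 2 or 3 (adjusted p = 0.0581 to 0.18) for Ms4a4b, IFNa replicate 1, 3 or 4 or untreated replicate 1, 2 or 3 (adjusted p = 0.0539 to 0.145) for Ms4a4d and IFNa replicate 1 or untreated replicate 2 (adjusted p = 0.0511 to 0.0628) for Ms4a6d. The Ifit genes formed a run of 5. Runs also held genes of different families, such as Rsad2 with Cmpk2, Parp14 with Dtx3l and Parp9, and Phf11a, Phf11d and Phf11c with Setdb2. Paralogues that lie side by side may share probe signal.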

How the data were processed

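Messenger RNA was measured on single-colour Affymetrix arrays. Per array and probe set, the authors deposited an intensity on a linear scale, made by RMA (background correction, normalization and summary over probes) with Affymetrix Power Tools per the submitters' processing notes, which give no version. Which arrays were normalized together is not given in the sources used here, and the quartiles differ between arrays. Of 24922 probe sets, 21425 carried 1 symbol in the platform table, 1399 several and 2098 none. The log2 of each intensity was taken, and the probe set with the highest mean over the 7 arrays stood for each gene (921 of 19752 genes had more than 1). Genes on shared probe sets were not analysed here. A 2-group model was fitted with limma 3.58.1 in R 4.3.3 (5 residual and 3.615 prior degrees of freedom for the moderated variances, two-sided tests, Benjamini-Hochberg adjustment over all genes). Errors after ± are standard errors. No filter on dim genes was applied. On simulated data with 200 changed genes, 83% of 2-fold and 99% of 4-fold changes were recovered, and 11 of 193 called genes were not changed ones. The simulated errors were normal and independent between genes and arrays, with no narrow arrays. These rates therefore check the procedure and may not hold for the real arrays.

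The comparison, the 37 lists (740 of 831 entries measured, 717 different genes) and the tests were chosen with earlier results of these data known. Named genes were the called, non-overlapping genes with the 20 largest rises or 12 largest falls (predicted genes and smell receptors left out), the members of each list lowest in p (at most 4), preset genes, and members of runs of adjacent genes; 42 more were chosen after their values were seen. Further called list members are given by their log2 change. Alternatives were all 9 arrays, quantile normalization, median centring, an intensity trend, robust variances, array weights, removal of the dimmest 30% or 50% of genes, the mean of probe sets, replicate blocks, omission of both narrow arrays or of each array in turn, an adjusted p under 0.01 and at least 2-fold. Adjacent genes followed the order of the RefSeq annotation, and promoter windows came from RefSeq GRCm38.p6. Other tools were Python 3.11.15, pandas 2.3.3, NumPy 2.4.6 and matplotlib 3.10.9.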

Additional observations from a re-analysis of the deposited data

Results flagged for a closer look

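In 24 of 274 named genes (8.76%) 1 of the 4 IFNa arrays lay far from the other 3, where chance gives about 1 in 20. IFNa replicate 4 was that array in 13 genes, replicate 1 in 9 and replicates 2 and 3 in 1 each. The part of the narrow intensity range of replicate 4 in this was not tested.

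IFNa replicate 4 was the highest for Rsad2 (10415, against 8058 to 8265 in the other 3), Isg20 (3640.4, against 2062 to 2231), Phf11d (2496), Socs3 (1971), Adar (1536), Cdh5 (138.1) and Ch25h (74.2). It was the lowest for H2-T24 (2795), Nt5c3 (1095), Npc1 (907), Ctla2b (300.4), Cdkn1b (238) and Nfkbie (169.9). IFNa replicate 1 was the highest for Ifi213 (3506, against 2403 to 2526), Slfn3 (1478), Fkbp5 (761) and Egr1 (422), and the lowest for Fcgr4 (2228, against 2912 to 2936), Ube2l6 (1728), Ccnd3 (1213), Abcg1 (1041) and Trex1 (722). IFNa replicate 3 was the highest for Siglec1 (1914) and replicate 2 for Scd1 (222). The description of IFNa replicate 1 names it in another form than those of the other 3.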

How the results depend on the processing

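No called gene named here changed direction under any alternative run. The number of genes higher, 299, became 498 and 514 with a replicate block by the numbers in the titles and in the descriptions, and 3142 with array weights, an estimate that did not converge. It lay between 211 and 317 without 1 array and between 212 and 396 in the other alternatives. The number lower, 74, became 169 with all 9 arrays, 243 under quantile normalization, 40 with an intensity trend, 5357 with array weights, 120 and 39 with the 2 replicate blocks, 294 without both narrow arrays, 17 at an adjusted p under 0.01 and 26 at 2-fold or more. Without 1 array it lay between 12 and 78, and with untreated replicate 2 left out 10 of the 12 were among the 74. Of the 74, 52 were also lower under quantile normalization, 68 without both narrow arrays and 73 with all 9 arrays. Same-numbered arrays of the titles deviated together by r = -0.21, 0.17 and 0.60, and those that share a number in the descriptions by -0.21, -0.44 and 0.10. The narrow arrays, IFNa replicate 4 and untreated replicate 1, have different title numbers and deviated together by r = 0.61. These values therefore cannot tell whether either numbering pairs the samples. Of 192 named genes called, 141 kept their call without any 1 array, and 51 lost it without at least 1. Under every alternative fit other than leaving out 1 array, 142 stayed called wherever they were tested. The cutoffs of an adjusted p under 0.01 and at least 2-fold were not part of this count. A gene removed as dim was not counted as lost. Without the dimmest 30% of genes 185 of the 192 were left, and without the dimmest 50% 176. Arrays give no counts, and their number limits the precision, most of all for the lower genes.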

Other observations

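Single higher genes outside the gene lists are given here. They were chosen after their values were seen, and no group of them was tested. Pnpt1 (1.84) and Dcp2 (1.82) encode enzymes that degrade or decap RNA, Znfx1 (1.68) and Mov10 (1.10) helicases, and Trex1 (1.32) a DNA exonuclease. Pnpt1 read 2339, 1689.8, 1814 and 1937 after IFNa and 361, 591 and 737 in untreated mice. Xrn1 (0.97), a 5′ exonuclease gene, and Tut7 (1.00), which adds uridines to RNA, also passed, and their calls ended without IFNa replicate 1, 2 or 3 or untreated replicate 2 (adjusted p = 0.0601 to 0.0866) and IFNa replicate 3 or untreated replicate 1 or 2 (adjusted p = 0.0522 to 0.112). The RNA sensor gene Ddx58 (2.62), absent from the lists under the name used there, rose from 455, 827 and 1109.6 to 4945, 4262, 4494 and 4655. Nt5c3 (2.88 ± 0.23) and Dck (2.22 ± 0.33), enzymes of nucleotide metabolism, rose as well, as did Rnf213 (2.03 ± 0.16) and Fgl2 (2.71 ± 0.32). The genes Peli1 (1.76), Spred1 (1.33), Map3k8 (1.29) and Pim1 (1.61) also rose, the last of which did not pass without untreated replicate 2 (adjusted p = 0.0629). Cd47 (0.92), which signals against uptake by phagocytes, and Ugcg (2.08), which makes glycosphingolipids, rose, and their calls ended without IFNa replicate 1, 2 or 3 or untreated replicate 2 (adjusted p = 0.0517 to 0.0752) and IFNa replicate 1 or 4 or untreated replicate 2 (adjusted p = 0.0537 to 0.071).

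Of 10 lower genes outside the lists, also chosen after their values were seen, most lost their call when single arrays were left out. Lyl1 read 785, 1051, 864 and 922 against 1762, 1806 and 1851 and Nfic 837, 904, 841 and 778 against 1527, 2169 and 1749, and both kept their calls whichever array was left out. They fell by 1.00 ± 0.13 and 1.10 ± 0.15 on the log2 scale. Cbfa2t3 (-0.97) and the RNA-destabilising Zfp36l2 (1964, 2358, 2429.8 and 1778 against 3753, 4046 and 5010.5) passed, and their calls ended without IFNa replicate 1 or 3 or untreated replicate 1 or 2 (adjusted p = 0.0534 to 0.109) and IFNa replicate 1 or untreated replicate 2 or 3 (adjusted p = 0.059 to 0.085). The channel genes Orai2 (-0.97), P2rx1 (-0.89), Kcnn3 (-0.68) and Tpcn1 (-0.66) passed too. Each depended on several arrays, and their calls ended without IFNa replicate 2 or 3 or untreated replicate 1, 2 or 3 (adjusted p = 0.0541 to 0.148), IFNa replicate 1, 2 or 3 or untreated replicate 2 or 3 (adjusted p = 0.128 to 0.247), IFNa replicate 1, 2 or 3 or untreated replicate 1, 2 or 3 (adjusted p = 0.0695 to 0.121) and IFNa replicate 1, 2, 3 or 4 or untreated replicate 1, 2 or 3 (adjusted p = 0.0596 to 0.189) in that order. The same was so for Sesn2 (-1.05), without IFNa replicate 1, 2, 3 or 4 or untreated replicate 2 or 3 (adjusted p = 0.0565 to 0.263), and Ptpn7 (-1.02), without IFNa replicate 1, 3 or 4 or untreated replicate 2 or 3 (adjusted p = 0.0587 to 0.206).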
